A study of Mus musculus with 6 samples.

Results

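Intermediate filaments are the rope-like fibres of the cytoskeleton that sit between microtubules and actin in thickness. In mature axons they are built from the neurofilament chains NEFL (light), NEFM (medium) and NEFH (heavy) together with α-internexin or peripherin, and they set the calibre of the axon. Vimentin and nestin form the filaments of dividing and progenitor cells and are usually replaced as neurons mature, while α-internexin and peripherin appear in young or peripheral neurons and in neurite-bearing neural tumour cells. The genes described here are the 3 neurofilament genes Nefl, Nefm and Nefh, the α-internexin gene Ina, the peripherin gene Prph, the vimentin gene Vim and the nestin gene Nes. These 7 genes were chosen by name from the 54532 genes listed, and 5 of them reached the mean of 1 FPKM (fragments per kilobase of exon, scaled to library size) over the libraries at which a gene was tested.

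RNA of N2a cells was sequenced in 6 libraries, 3 after transfection with si-NC, a control siRNA, and 3 after transfection with si-circRtn4, an siRNA directed against circRtn4, a circular RNA of the Rtn4 gene. These neuroblastoma cells, also called Neuro2A, are of mouse origin. The labels give the strain C57BL/6, which the study's methods name for mice and primary neurons but not for N2a cells. The labels name only a growth medium with serum, whereas the study's methods describe, for transfected N2a cells, a change to low-serum differentiation medium with retinoic acid before harvest. Whether the sequenced cells had been differentiated is therefore not settled, and the levels below may be those of growing or of differentiating cells. The labels do not say whether libraries of a group came from separate cultures, so p-values measure only the spread between these libraries. The comparison asks which transcripts differ when circRtn4, which the study follows as a regulator of neurite growth, is targeted.

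The libraries held 13541198 to 15122063 reads on genes. The linear gene Rtn4 was at 61.0, 66.8 and 69.8 FPKM under si-NC and at 50.1, 56.7 and 62.7 FPKM under si-circRtn4. These groups overlap, and the log2 fold change was -0.22 (limma, Benjamini-Hochberg adjusted p = 0.216, and 0.0447 with replicate number as a block). FPKM per gene does not separate the circle from linear transcripts, so the targeted molecule itself could not be checked in these libraries. By qRT-PCR, the study reported efficient knockdown of the circle in N2a cells and no significant change of linear Rtn4. Chd5, the chromatin remodeller that the study follows up, fell from 10.4 ± 1.22 to 3.83 ± 0.262 FPKM (SD, n = 3, log2 fold change -1.23, limma adjusted p = 0.00139). N2a identity was read from noradrenergic neuroblastoma markers, and 11 of 12 such genes reached a mean of 1 FPKM over the 6 libraries, among them Phox2a and Hand2, transcription factors of sympathetic neurons. Th and Dbh reached this mean only through si-NC. Under si-circRtn4 their means were 0.712 and 0.602 FPKM. Of 7 astrocyte and 6 microglia and macrophage markers, 0 reached a mean of 1 FPKM.

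The filament genes ranged from no read at all to one of the highest levels of any gene, and peripherin dominated. Prph ranked 20 of all 54532 genes by mean FPKM and took 84.0% to 87.5% of the summed FPKM of the 7 genes in every library. Vim ranked 401, Ina 1366, Nefh 3467 and Nes 8513. For each neighbouring pair in this order the 6 libraries of the higher gene all lay above the 6 libraries of the lower gene. FPKM is a value per length, here the length of all annotated exonic bases of a gene, so these levels can be compared between genes only roughly. A gene whose transcripts use only part of those bases is given too low a value.

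**Figure D1:**
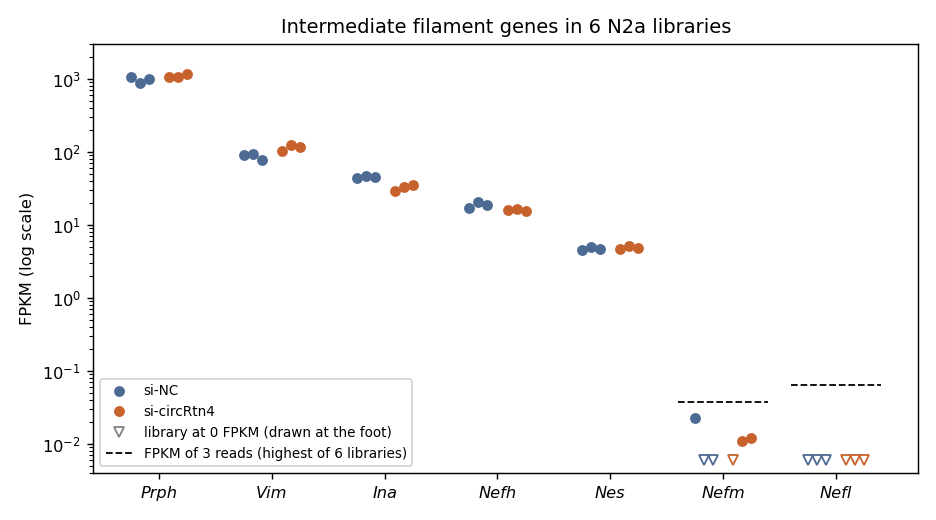
FPKM on a log axis of the 7 intermediate filament genes, 1 point per library, si-NC beside si-circRtn4. Prph lies near 1000 FPKM, Nes near 5 FPKM, and Nefm and Nefl lie under the dashed line, which marks the FPKM that 3 reads would give.

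The light and medium neurofilament genes were close to undetected. Nefl, whose chain forms the core of the neurofilament, had 0 reads and 0 FPKM in each of the 6 libraries. A count of 0 allows up to 3 reads, which for Nefl equals 0.0570 to 0.0634 FPKM, depending on the library. Nefm had 2, 0 and 0 reads under si-NC and 0, 1 and 1 reads under si-circRtn4, or 0.0229 FPKM at the most. All Nefm values lie under the 0.0333 to 0.0371 FPKM that 3 reads would give, so Nefl and Nefm are not told apart in level and no fold change is given for either. Nefh, whose long tail carries the phosphorylation sites that space filaments apart, had 898 to 1200 reads per library and was the only neurofilament gene of the 3 with a measurable level.

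Both low genes are neighbours in the genome. In GRCm38, Nefl (ENSMUSG00000022055) runs from 68083863 to 68089095 on the plus strand of chromosome 14. Nefm (ENSMUSG00000022054) runs from 68082590 to 68124846 on the minus strand, so the whole of Nefl lies inside the annotated span of Nefm. The overlap comes from transcript Nefm-202, whose last exon covers most of the first exon of Nefl, and 1108 exonic bases are shared. That is 32.8% of the exonic bases of Nefl and 19.2% of those of Nefm, which leaves 2272 and 4674 exonic bases that the pair does not share. The library protocol does not state whether strand was kept, and reads that fall on 2 genes can be dropped in counting, which was not tested for this pair. Among 540 protein-coding genes that lie inside a protein-coding gene of the other strand, 398 (73.7%) were above 0 in at least 1 library, against 16538 of all 21918 protein-coding genes (75.5%). Lying inside a gene does not require shared exons, so these shares do not bear on reads dropped where exons overlap. None of 30 genes that most cells use was at 0 in any library, and the lowest of them, Gapdh, which has many pseudogenes, was at 1.603 to 8.155 FPKM.

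**Figure D2:**
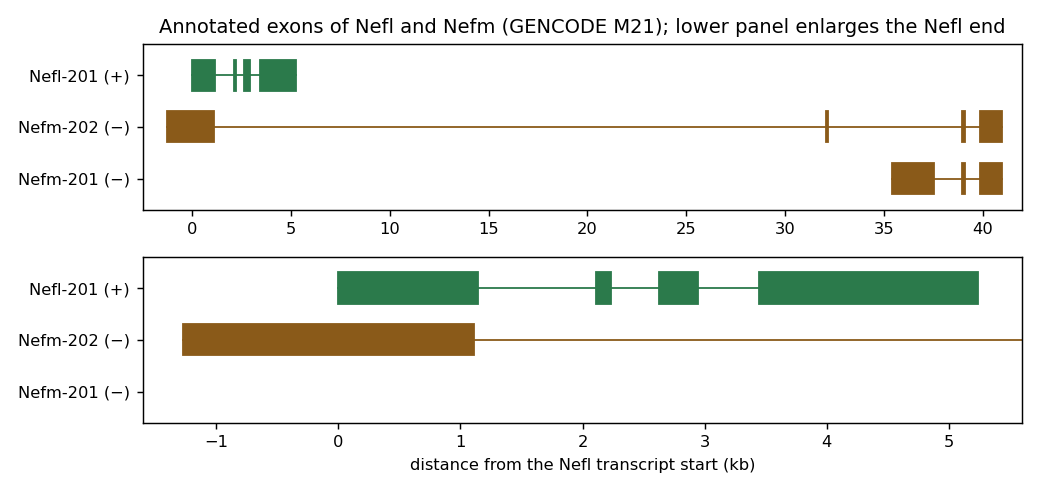
Annotated exons (boxes) of Nefl on the plus strand and of both Nefm transcripts on the minus strand, by distance in kilobases from the Nefl transcript start. The first exon of Nefl overlaps the last exon of Nefm-202, while Nefm-201 lies more than 30 kb away.

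The other members lie apart from each other. Nefh (ENSMUSG00000020396) occupies chromosome 11, minus strand, bases 4938754 to 4948064. On the plus strand, Prph (ENSMUSG00000023484) occupies bases 99055174 to 99058978 of chromosome 15, and Ina (ENSMUSG00000034336) bases 47014698 to 47025327 of chromosome 19. Vim (ENSMUSG00000026728) occupies bases 13573927 to 13582826 of chromosome 2 and Nes (ENSMUSG00000004891) bases 87971078 to 87980451 of chromosome 3, both on the plus strand. Of these 5, Ina alone shares exonic bases with an annotated gene, 456 bases (14.1%) with Nt5c2 on the other strand.

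Among several microRNAs tied to circRtn4, miR-24-3p is the one that was followed up. The 3′ UTRs of the 7 genes were therefore searched for the 7 bases that pair with bases 2 to 8 of miR-24-3p (CTGAGCC) and, since an siRNA can act on such short matches too, of the si-circRtn4 guide (ACCCTTT). For the guide, the reverse complement was used of the siRNA strand listed in the study's sequence table, which is an assumption. Capitals mark bases 2 to 8 of the microRNA (RefSeq, GRCm38.p6) and of the guide, and the matching stretch of the listed strand.
miR-24-3p: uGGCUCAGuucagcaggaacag
si-circRtn4 as listed: cttcagatgagACCCTTTt
si-circRtn4 guide: aAAAGGGUcucaucugaag

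The site of miR-24-3p was found once each in Nefl, Nefm, Nefh and Nes, and not in Ina, Prph or Vim. The Nefm site lies in the last exon of Nefm-202, within its overlap with the first exon of Nefl. The other Nefm transcript, Nefm-201, does not contain it. In GENCODE M21 the longest annotated 3′ UTR was 1648 bases for Nefl, 2234 for Nefm (transcript Nefm-202), 591 for Nefh, 1677 for Ina, 308 for Prph, 342 for Vim and 421 for Nes. The sites are shown on the transcript strand with 10 bases on each side and the 7 bases in capitals.
Nefl, chr14:68088281-68088307, plus strand: aaattgaaacCTGAGCCcatgatacaa
Nefm, chr14:68084657-68084683, minus strand: catactggatCTGAGCCtgcagctcgg
Nefh, chr11:4939146-4939172, minus strand: gaagataaccCTGAGCCttgtccccca
Nes, chr3:87980193-87980219, plus strand: ctcaggtcagCTGAGCCtatagttcaa

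None of these 4 sites is followed by an A, which would make it an 8mer. Of 20952 genes with an annotated 3′ UTR, 3407 (16.3%) hold CTGAGCC at least once. Among genes with 3′ UTRs of like length the share was 20.6% for Nefl, 25.0% for Nefm, 8.90% for Nefh and 6.46% for Nes. A match says only that these letters occur in the sequence, and the same holds for the guide, whose 7 bases were found in Nefl alone, there followed by an A.
Nefl, chr14:68088455-68088481, plus strand: acatttaaaaACCCTTTaaagaccaca

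ACCCTTT occurs in the 3′ UTRs of 2298 of the 20952 genes (10.97%) and in 13.5% of those with a 3′ UTR as long as that of Nefl. Nefl had no reads in any library, so nothing about its site can be read from these data. Of the members that could be tested, Nefh and Nes hold a miR-24-3p site, while Ina, Prph and Vim hold neither site.

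Between the groups, 1 of the 5 tested filament genes changed at an adjusted p under 0.05 over all 12749 genes tested. Ina fell, and Nefh, Prph, Vim and Nes did not pass the test. Over all genes tested, 556 (4.36%) rose and 615 (4.82%) fell, so 1 gene of 5 is a count too small to set against that background. Lower si-circRtn4 values without overlap of the groups were found for 2 genes and higher ones for 1 gene, which held for 15.5% and 16.2% of all genes tested. The median log2 fold change was 0.04 over the 5 genes and 0.002 over all genes tested. When libraries were rescaled to the same FPKM sum, 977 genes rose and 400 fell over all genes, so that 70.95% of calls were higher instead of 47.48%.

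**Figure D3:**
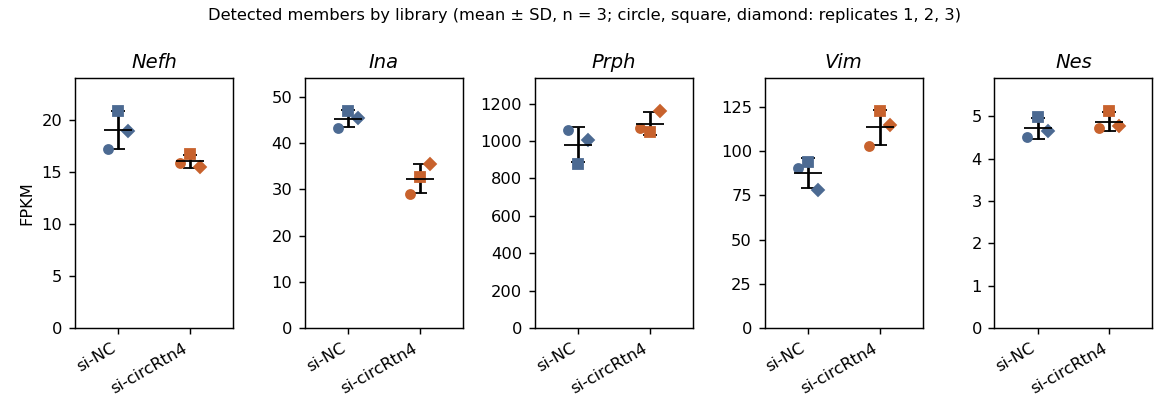
FPKM of the 5 detected genes in each library (linear axes from 0), with bars for mean ± SD of 3 libraries per group and 1 marker shape for each replicate number. Ina and Nefh lie lower and Vim lies higher in all 3 si-circRtn4 libraries, while Prph and Nes overlap.

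Ina encodes α-internexin, the neuron-specific filament protein that can assemble by itself and joins the neurofilament chains in central axons. Ina was at 43.4, 47.0 and 45.5 FPKM under si-NC and at 29.0, 32.6 and 35.5 FPKM under si-circRtn4. All 3 si-circRtn4 values lie below all si-NC values. The mean fell from 45.3 ± 1.81 to 32.4 ± 3.23 FPKM (SD, n = 3), to 71.5% of the si-NC level. The log2 fold change of FPKM + 1 was -0.48 (SE 0.089, 95% interval -0.68 to -0.27, limma with Benjamini-Hochberg adjustment, adjusted p = 0.0195). The two-sided exact permutation test gave p = 0.1, the smallest that 3 against 3 libraries allow. The call was lost without replicate 2 (limma adjusted p = 0.0794) or 3 (0.0597) of si-NC, without replicate 1 (0.0501) or 2 (0.0647) of si-circRtn4, and where all genes above 0 were tested (0.0554). In bulk RNA, fewer cells with a transcript and less of it per cell cannot be told apart. Ina shares 14.1% of its exonic bases with Nt5c2, and whether this overlap touched its counts was not tested.

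Nefh was at 17.2, 20.8 and 18.9 FPKM under si-NC and at 15.9, 16.7 and 15.5 FPKM under si-circRtn4. The groups do not overlap, but the lowest si-NC library lies only just above the highest si-circRtn4 library. The means were 18.98 ± 1.83 and 16.0 ± 0.621 FPKM (SD, n = 3). The log2 fold change of -0.23 (SE 0.086, 95% interval -0.43 to -0.03) did not pass the test (limma adjusted p = 0.146). With replicate number as a block the adjusted p from limma was 0.0581, also above the threshold.

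Prph encodes peripherin, the filament protein of peripheral and sympathetic neurons and of neuroblastoma cells. It was at 1057, 878 and 1008 FPKM under si-NC and at 1071, 1050.2 and 1161 FPKM under si-circRtn4. The si-NC replicate 1 library lies above the lowest si-circRtn4 library, so the groups overlap. The means were 981 ± 92.5 and 1094 ± 58.9 FPKM (SD, n = 3), and Prph took 0.178% to 0.232% of all reads on genes. The log2 fold change was 0.16 (SE 0.10, 95% interval -0.08 to 0.40, limma adjusted p = 0.370). After quantile normalization, which gives all libraries the same distribution of values, the log2 fold change was 0.29 and passed limma's test (adjusted p = 0.0148).

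Vim encodes vimentin, the filament protein of mesenchymal and undifferentiated cells, which is also common in cells grown in culture. It was at 90.7, 94.0 and 77.9 FPKM under si-NC and at 103, 123 and 115 FPKM under si-circRtn4. Every si-circRtn4 value lies above every si-NC value. The means were 87.5 ± 8.49 and 113 ± 10.0 FPKM (SD, n = 3), 1.30-fold apart. The log2 fold change was 0.37 (SE 0.10, 95% interval 0.13 to 0.61), and limma's adjusted p of 0.0648 missed the threshold. With replicate number as a block it passed (limma adjusted p = 0.0337), which made 1 filament gene higher and 1 lower. The block also raised the calls over all genes to 1185 higher (9.29%) and 1243 lower (9.75%).

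Nes encodes nestin, the large filament protein of neural progenitors, which assembles with vimentin. It was at 4.50, 4.98 and 4.67 FPKM under si-NC and at 4.73, 5.13 and 4.77 FPKM under si-circRtn4. The ranges of the groups overlap. The means were 4.72 ± 0.244 and 4.88 ± 0.218 FPKM (SD, n = 3). The log2 fold change was 0.04 (SE 0.079, limma adjusted p = 0.8005), and its 95% interval ran from -0.14 to 0.22.

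**Figure D4:**
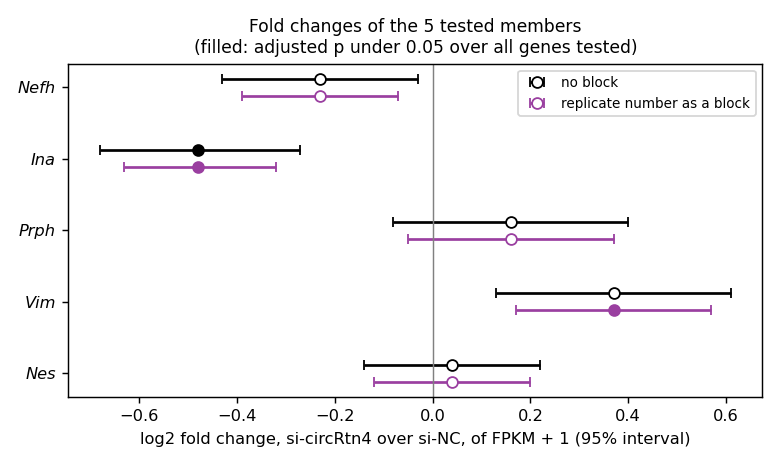
Log2 fold change of FPKM + 1, si-circRtn4 over si-NC, with 95% intervals for the 5 tested genes, without and with replicate number as a block. The Ina interval lies below 0 and is filled in both fits, while Vim is filled with the block alone.

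The balance between filament genes was also described within each library, where a ratio does not depend on the scaling of the library. The ratio of Vim to Ina FPKM was 2.09, 2.001 and 1.71 under si-NC and 3.54, 3.76 and 3.23 under si-circRtn4. The ratio of Prph to Ina was 24.4, 18.7 and 22.2 against 36.9, 32.2 and 32.8. Both ratios were higher in every si-circRtn4 library than in every si-NC library. Ina alone was already lower in every si-circRtn4 library, and it was chosen as the divisor after seeing the data. These ratios therefore restate the fall of Ina and are no separate support for it. Nefh to Ina, the 2 genes with lower values, stood at 0.396, 0.443 and 0.416 against 0.547, 0.511 and 0.436, with overlap. Nes to Vim, the pair that assembles together, stood at 0.0497, 0.0530 and 0.0599 against 0.0461, 0.0418 and 0.0416, lower in each si-circRtn4 library. Ina made up 3.58% to 4.50% of the summed FPKM of the 7 genes under si-NC and 2.37% to 2.66% under si-circRtn4. This share and the ratio of Nes to Vim likewise rest on the Ina and Vim values given above.

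Genes that ran most closely with the leading gene and with the called gene were looked up as a description over the 6 libraries. For Prph they were Phactr3 (Pearson r = 0.997), Cyp4f17 (0.981) and Nyap1 (0.977) on the scale of log2(FPKM + 1). For Ina they were Bok (0.999), Chd3 (0.996) and Ndufa4 (0.995). These 6 libraries share 2 groups and 12749 genes were searched, so high values are found for many genes. Bok, a member of the BCL2 family, fell by 0.71 on the log2 scale (limma adjusted p = 0.0144), while Chd3 (adjusted p = 0.0512) and Ndufa4 (0.110) did not pass the limma test.

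Other genes of the filament system were counted list by list, beside the 4.36% of all genes tested that rose and the 4.82% that fell. Of 19 further intermediate filament genes (lamins, keratins, glial and muscle filaments, lens filaments and synemin-type partners), 13 had a mean under 1 FPKM and 5 of those were listed at 0 in all 6 libraries. Of the 6 tested, 0 passed the test in either direction. Their largest log2 fold changes were -0.45 for Sync (syncoilin, adjusted p = 0.118), 0.41 for Synm (synemin, a partner of vimentin and desmin, 0.103) and -0.26 for Iffo1 (0.122), all by limma. Synm was at 2.78, 1.75 and 2.07 FPKM against 3.39, 3.05 and 3.199 FPKM and passed with replicate number as a block (limma adjusted p = 0.0476). Gfap, the astrocyte filament gene, was under 0.4 FPKM in every library.

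**Figure D5:**
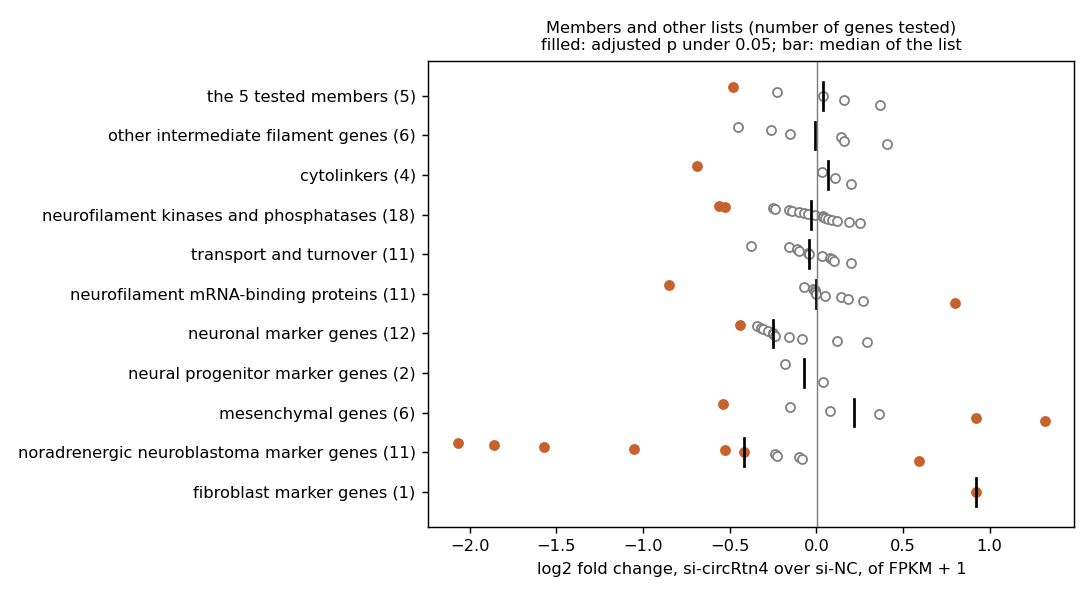
Log2 fold change of FPKM + 1 for each tested gene of the filament set and of 10 other gene lists, 1 point per gene, filled where limma's adjusted p was under 0.05, with the number of genes tested in parentheses. Short bars mark the median of a list and the grey line the median of all genes tested, and the noradrenergic and neuronal lists lie mostly to the left of it.

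Proteins that link filaments to the other parts of the cytoskeleton gave 4 tested genes of 7, with 1 lower. Evpl (envoplakin) was at 3.45, 2.49 and 2.66 FPKM under si-NC and at 1.21, 1.30 and 1.65 FPKM under si-circRtn4 (log2 fold change -0.69, limma adjusted p = 0.0234). All 18 kinases, phosphatases and their partners that act on neurofilament tails were tested, and 2 of them fell and 0 rose, in lists too short to set apart from those shares over all genes. Mapk10, which encodes the neuronal kinase JNK3, had a log2 fold change of -0.53 (limma adjusted p = 0.0465). Ppp2cb, a catalytic subunit of protein phosphatase 2A, had a log2 fold change of -0.56 (limma adjusted p = 0.0143) and went from 109 ± 5.71 to 73.9 ± 7.53 FPKM (SD, n = 3). The block added Prkaca, the catalytic subunit of protein kinase A, to the genes that fell (log2 fold change -0.24, limma adjusted p = 0.0336), and Prkaca is named because of that call.

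Of 12 genes for filament transport and turnover (kinesin and dynein subunits, myosin Va, gigaxonin and chaperones), 11 were tested and 0 passed in either direction. The largest log2 fold changes were -0.38 for Cryab (a small heat shock protein, adjusted p = 0.0555), 0.20 for Klc2 (0.166) and -0.16 for Kif5c (0.370), all by limma, and Cryab passed with the block (limma adjusted p = 0.0277). All 11 RNA-binding proteins and regulators known to bind neurofilament transcripts were tested, with 1 higher and 1 lower. Elavl4, the neuronal RNA-binding protein HuD, rose from 10.4, 14.8 and 15.6 FPKM to 21.5, 22.9 and 28.4 FPKM (log2 fold change 0.80, limma adjusted p = 0.0252). Arhgef28, an exchange factor that binds the Nefl transcript, fell from 23.8, 24.6 and 28.1 FPKM to 12.4, 12.1 and 17.1 FPKM (log2 fold change -0.85, limma adjusted p = 0.0116). For both genes the groups do not overlap. The block added Sod1, named because of that call, to the genes that rose (log2 fold change 0.27, limma adjusted p = 0.0495).

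Marker lists of cell types and states were counted in the same way, and their part in the Ina and Vim values was not tested. Of 14 neuronal marker genes, 12 were tested, 10 of them had log2 fold changes below 0, the median was -0.25, and 1 passed. That gene was Syn1, the synaptic vesicle protein synapsin, at 24.6, 23.7 and 21.5 FPKM against 16.4, 16.7 and 17.4 FPKM (log2 fold change -0.44, limma adjusted p = 0.0144). With the block, under which 9.75% of all genes tested fell and 9.29% rose, 4 of the 12 fell (Gap43, Ncam1, L1cam and Syn1) and 1 rose (Eno2), and the first 3 and Eno2 are named because of that call. The summed FPKM of the neuronal list was 1230.4 to 1368 under si-NC and 920 to 1237 under si-circRtn4. Most of this sum was Tubb3 and Uchl1, which did not pass in either fit. Of 12 noradrenergic markers 11 were tested. Without the block 6 of these fell, namely Phox2a, Gata2, Th, Dbh, Chga and Chgb, and 1 rose, Tbx2. Over all genes tested, 4.82% fell and 4.36% rose in that fit. Th and Dbh encode enzymes of noradrenaline synthesis, and Chga and Chgb encode proteins of secretory granules. The list summed to 1939 to 2219 FPKM under si-NC and 800.3 to 1059 FPKM under si-circRtn4. Chgb alone went from a mean of 1299.7 to 363.7 FPKM, so this sum largely follows Chgb. The log2 fold changes were -2.07 for Dbh and -1.86 for Chgb (limma adjusted p = 0.00351 and 0.00283). Both enzyme genes were low under si-NC too, Th at 2.26 to 2.96 FPKM and Dbh at 3.72 to 8.52 FPKM. With means of 0.712 and 0.602 FPKM under si-circRtn4, both were tested only because of their si-NC values.

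Of 15 mesenchymal genes, which are commonly seen with vimentin, 6 were tested, 2 rose and 1 fell. Acta2 (smooth muscle actin) had a log2 fold change of 1.32 (limma adjusted p = 0.0135) and Wwtr1 (the coactivator TAZ) 0.92 (limma adjusted p = 0.0117), while Fn1 (fibronectin) fell by 0.54 on the log2 scale (limma adjusted p = 0.0142). Acta2 was at 0.521, 0.117 and 0.361 FPKM (14, 3 and 9 reads) under si-NC. Under si-circRtn4 it was at 1.46, 2.92 and 2.74 FPKM. Acta2 thus reached the mean of 1 FPKM only through the si-circRtn4 libraries, and its call carries little weight. Zeb2 rose with the block (log2 fold change 0.36, limma adjusted p = 0.0377) and is named because of that call. The list summed to 26.8 to 28.7 FPKM under si-NC and 27.3 to 29.2 FPKM under si-circRtn4. Of 7 fibroblast markers only Pdgfrb reached a mean of 1 FPKM, and it rose from 2.77, 1.39 and 1.996 FPKM to 6.19, 4.06 and 4.08 FPKM (log2 fold change 0.92, limma adjusted p = 0.0316). The fibroblast list summed to 1.77 to 3.27 FPKM against 4.59 to 6.97 FPKM, but most of each sum was Pdgfrb itself. Of the members under a mean of 1 FPKM, Dcn was at 0.0513 ± 0.0253 against 0.169 ± 0.0351 FPKM (SD, n = 3) without overlap of the groups. Its reads were only 5, 2 and 6 under si-NC and 12, 19 and 13 under si-circRtn4. Higher values without overlap were found for 16.2% of all genes tested, which did not include Dcn. Pdgfra (means of 0.211 and 0.303 FPKM), Col1a1 (0.0756 and 0.153 FPKM), Col1a2, Col3a1 and Lum overlapped. None of the 7 was at 0 in all 6 libraries, and their part in the Vim values was not tested.

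Of 12 neural progenitor markers, the genes commonly seen with nestin, 10 had a mean under 1 FPKM and 4 of those were listed at 0 in all 6 libraries. The 2 tested were Msi1 (log2 fold change -0.18, limma adjusted p = 0.236) and Pax6 (0.04, limma adjusted p = 0.879), and neither passed. Summed over the list, the FPKM was 24.9 to 27.0 under si-NC and 21.3 to 24.9 under si-circRtn4.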

How the data were processed

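The authors deposited FPKM per gene with gene lengths and coordinates, and libraries were matched to groups by their titles. Columns of 6 other samples in the same table were left out. The submitters' processing notes name Bowtie 0.12.2 and the builds mm8 and mm9, but 53499 genes (98.1%) have the coordinates of GENCODE M21, so coordinates are given in GRCm38. The counter, strand setting and annotation are not given in the sources used here. FPKM times gene length gave whole multiples of 1 step (within 0.01) for 100% of values, from which reads were recovered.

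Log2(FPKM + 1) was fitted for the 12749 genes that averaged 1 FPKM or more with limma 3.58.1 in R 4.3.3 (mean-variance trend), with Benjamini-Hochberg adjustment over all of them. A fold change on this scale understates changes of low genes. Exact permutation tests were two-sided. Floors cover counting error only. Counting may split or drop reads of genes with near-identical copies.

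The members and lists were chosen with earlier results of these data known. The genes named were the 7 members, Rtn4, Chd5, the called genes of each list or else up to 3 with the largest change, and up to 3 genes most correlated with Prph and with each called member. Ratios to Nefl had been planned, but Nefl was at 0, so ratios to Ina were used, a choice made after seeing the data.

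Groups share replicate numbers. Deviations from group means correlated at 0.331, 0.190 and 0.226 for equal numbers and at 0.009 or less for unequal ones. The numbers were therefore taken as pairs in the fit with a block. The labels do not say that equal numbers share a culture or batch. Since the pairing was read from the same values that it was used to test, calls made only with the block carry less weight. Alternatives were another pseudocount, no filter on low values, 3 other scalings, limma-voom on recovered reads, no trend, the block, and leaving out each library. The scripts were tested on simulated data. Python 3.11.15 with numpy 2.4.6, pandas 2.3.3, scipy 1.17.1 and matplotlib 3.10.9 was used.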

Additional observations from a re-analysis of the deposited data

How the results depend on the processing

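None of the 5 tested genes changed direction under any of the 14 alternatives. Ina ranged from -0.54 to -0.39 (limma adjusted p 0.00428 to 0.0794). With all 28442 genes above 0 tested, Ina (-0.48) and hence all calls of members were lost (0 lower). Leaving out 1 library gave Ina values of -0.54 to -0.40 and 0 to 1 member lower. Vim passed when rescaled to the same FPKM sum (0.46), rescaled without the abundant small RNA gene Gm23935 (0.39), by limma-voom (0.40) and with the replicate block (0.37), 1 member higher in each, and by quantile normalization (0.42), where Prph (0.29) made 2. Without the block Vim ranged from 0.29 to 0.44 as libraries were left out. Nefh (-0.30 to -0.14) and Nes (0.01 to 0.12) passed under none of the alternatives. The share of Gm23935 in the FPKM sum was 20.1% to 20.7% under si-NC and 13.5% to 18.8% under si-circRtn4.

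Over all genes, 261 were lower and 210 higher with no filter on low values, 400 and 977 when rescaled to the same FPKM sum, and 1243 and 1185 with the replicate block, which pairs libraries by number. Limma-voom gave 903 higher. Leaving out 1 library gave 212 to 416 lower and 157 to 406 higher, fewest without si-NC replicate 2. The cause of these changes was not tested, beyond the fewer libraries or the more genes tested. With 13541198 to 15122063 reads, Nefl and Nefm lie at or under the floor of 3 reads, and no comparison of them can be made at this depth.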
